A study of Mus musculus with 6 samples.

Results

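The Eph receptor genes described here are 10 genes chosen by symbol, 5 of the EphA class (*Epha3*, *Epha4*, *Epha5*, *Epha6* and *Epha7*) and 5 of the EphB class (*Ephb1*, *Ephb2*, *Ephb3*, *Ephb4* and *Ephb6*). All 10 were among the 21876 genes tested, of 55357 genes in the counts. They were measured by RNA-seq of polyadenylated RNA in 6 libraries of mouse primary neuronal cultures, to ask how the transcriptome differs when *Pla2g4e*, which encodes a calcium-dependent N-acyltransferase of the cytosolic phospholipase A2 family, is knocked down. The cultures came from cortex and hippocampus of wild type C57BL/6N embryos. They were transduced with lentivirus at DIV4 (days in vitro) and collected at DIV14. The 3 shCtrl libraries carried a scrambled shRNA and the 3 sh*Pla2g4e* libraries a single shRNA against *Pla2g4e*, called sh2, so the comparison rests on 1 knockdown sequence. The viral dose was chosen for a partial loss of the *Pla2g4e* transcript, and shCtrl virus was given in the same amount. The labels number the libraries 1 to 3 in each group and do not say whether these were separate cultures, so that p-values measure the spread between these libraries, which may be technical.

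Eph receptors are receptor tyrosine kinases that bind ephrins on the surface of a neighbouring cell. EphA receptors mostly bind the lipid-anchored ephrin-A ligands, and EphB receptors mostly bind the transmembrane ephrin-B ligands, while the ligand-bearing cell can itself receive a signal, called reverse signalling. In neurons the family is best known for growth cone repulsion, topographic maps, and the formation and pruning of dendritic spines. EphB6 and EphA10 are the members whose kinase domain is held to be inactive, and they are thought to act through other Eph receptors.

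Between 17054717 and 23570180 reads were counted per library. *Pla2g4e* itself, the check of the labels, stood at 38.0, 35.1 and 35.4 CPM (read counts scaled to the library size with TMM factors) in shCtrl and at 21.8, 14.2 and 18.7 in sh*Pla2g4e*. This is a log2 fold change of −0.99 (SE 0.13, adjusted p = 1.24e-04 by edgeR's quasi-likelihood test with Benjamini-Hochberg adjustment over all genes, as for all adjusted p-values below). A gene was called a differentially expressed gene (DEG) at an adjusted p under 0.01.

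The sequence of sh2, as the study lists it, is shown first, because a guide strand can also pair through its seed, bases 2 to 8, with other transcripts, and a stretch that many Eph receptor genes share holds such a match. In the guide the capitals mark the seed, and in the target the bases that pair with it, GTGGCCA.
sh2 guide: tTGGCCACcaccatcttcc
sh2 target in *Pla2g4e*: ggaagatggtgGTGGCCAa

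The coding sequences of the Eph genes in GENCODE vM21 (GRCm38) were searched, on the transcript strand and in frame, for the codon stretch GTNGCNATNAAN. In Eph receptors its last codon encodes the lysine that holds ATP in the kinase domain. The coding sequence of *Epha10* in that annotation has 879 bases, ends before the kinase part and could not be scored. The stretch occurred once in 12 of the other 13 Eph receptor genes of the mouse, 9 of them among the 10 genes described here, between base 1930 and base 2260 counted from the start codon. Of the 15816 tested coding genes, 1.91% held it in frame. In the narrower form GTGGCCATNAAN, which contains the whole seed match, it was found in 0.645% of the tested coding genes, 102 in number, and in 8 of the 13 Eph genes scored. Of these 8 genes, 5 are among the 10 described here. The stretch in the 9 genes is shown with 8 bases before it, under its position in GRCm38, and capitals mark a complete seed match.
*Epha3* (chr16:63595673-63595684, minus strand, exon 11): agatttcgGTGGCCAtaaagacc
*Epha4* (chr1:77387912-77387923, minus strand, exon 11): agatctgtGTGGCCAtcaagact
*Epha7* (chr4:28948657-28948668, plus strand, exon 11): atgttgcaGTGGCCAtaaaaacc
*Ephb1* (chr9:101971268-101971279, minus strand, exon 11): aaatctatGTGGCCAtcaagacc
*Ephb4* (chr5:137366600-137366611, plus strand, exon 12): agagctgtGTGGCCAtcaagact
*Epha5* (chr5:84105964-84105975, minus strand, exon 12): aattacctgtggctatcaaaact
*Epha6* (chr16:59915899-59915910, minus strand, exon 11): agatcccagttgcaattaaaaca
*Ephb2* (chr4:136660829-136660840, minus strand, exon 11): agatctttgtagccatcaagacc
*Ephb3* (chr16:21220706-21220717, plus strand, exon 11): aggtgttcgtggctatcaagacg

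Counted from 1 at the 5′ end of the seed match, the last 4 genes differ from it by C6T in *Epha5* and *Ephb3*, G3A in *Ephb2*, and G3T and C6A in *Epha6*. *Ephb6* held no such stretch in its coding sequence. Its single seed match lay elsewhere, in exon 14 at base 2296 from the start codon (chr6:41618604-41618610, plus strand). It is shown because *Ephb6* is the gene whose call was clearest.
*Ephb6*: tgcagctgGTGGCCAtgcagcgg

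Seed matches in a 3′ UTR, the region in which microRNA-like pairing acts most, were found in 2 of the 10 genes (against 14.6% of tested coding genes with an annotated 3′ UTR). Both lie in EphA genes.
*Epha4* (chr1:77368269-77368275, minus strand, exon 18, 3′ UTR): cagaaactGTGGCCAtttatata
*Epha7* (chr4:28964203-28964209, plus strand, exon 17, 3′ UTR): caccactgGTGGCCAggaacaca

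Over any annotated coding transcript, 8 of the 10 genes held a seed match in the coding sequence (80.0%, against 26.0% of all tested coding genes). Coding sequences of these genes are long, and among the 579 genes with a coding sequence in the same range of length the share was 39.7%, by the longest coding transcript, in which the same 8 genes held a match. *Epha5* and *Ephb3* held none in either region. *Ephb2* and *Epha6* each held 1, in another reading frame than the lysine stretch, and *Ephb4* held 4. Of all tested coding genes with an annotated 3′ UTR, 5.45% were called down, against 16.5% of those with a match there, 5.69% of those with a match in the coding sequence alone, as in 6 of the 10 genes, and 2.85% of those with no match in either region. The matches describe letters in the reference, and whether the guide acts on any one of them in an Eph gene was not tested.

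**Figure D1:**
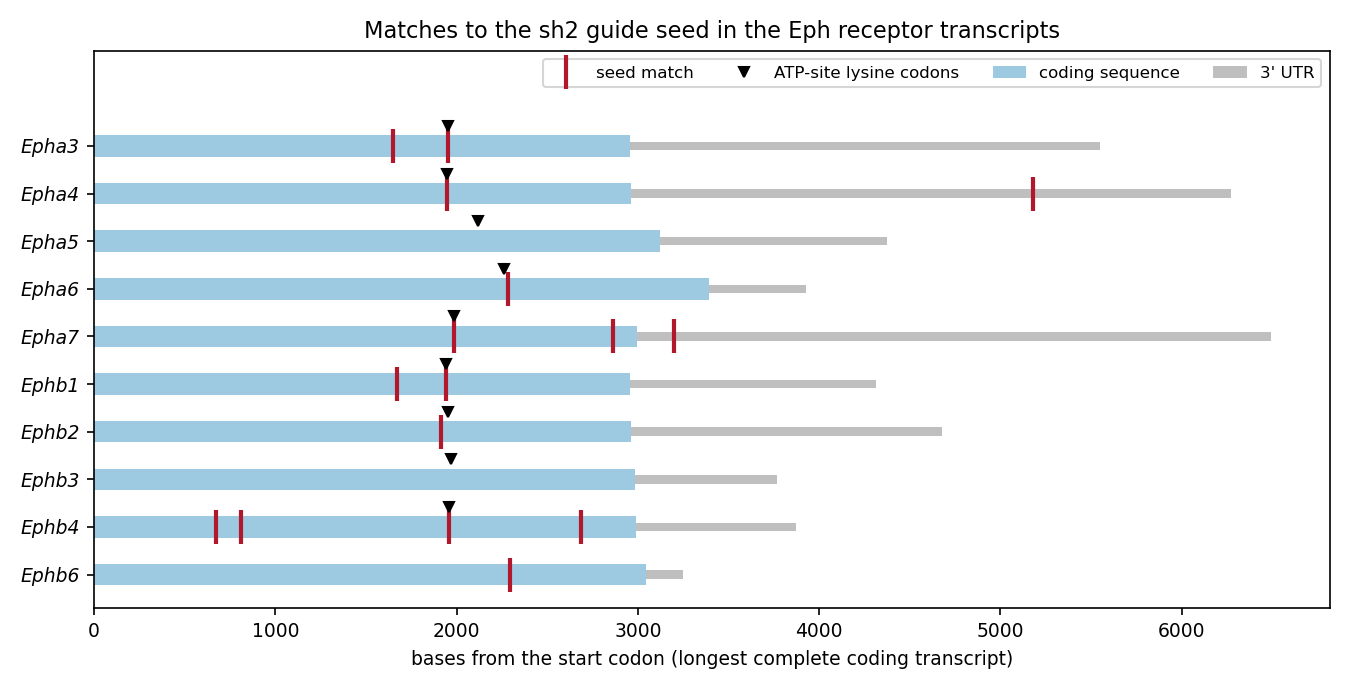
Positions of seed matches (red bars) along the longest complete coding transcript of each of the 10 genes, in bases from the start codon, with the coding sequence in blue, the 3′ UTR in grey and the lysine codons as black triangles. The triangles line up between base 1942 and base 2260, a red bar falls under 5 of the 9, and *Ephb6* has no triangle and 1 bar.

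Of the 10 Eph receptor genes, 1 was called at an adjusted p under 0.01, against 6.49% of all genes (1419, with 876 or 4.0% down and 543 or 2.48% up). That gene was *Ephb6*, which fell to 51.1% of its shCtrl level. With a fit that holds the replicate number as a block 2 were called, *Ephb2* being the second, against 15.5% of all genes, and at a threshold of 0.05 the same 2 passed, against 12.9%. By sign alone 8 were lower and 2 higher in sh*Pla2g4e*, although *Epha4*, *Epha5* and *Ephb3* turned to values just above 0 when libraries were scaled by total reads alone. The median log2 fold change was −0.14 over the 10 genes and −0.073 without *Ephb6*, beside 0.029 over all genes tested. The EphA genes had a median of −0.073 with 0 called by edgeR, with or without the block, by DESeq2 or by limma, and the EphB genes a median of −0.28 with 1 called. The EphA median ran from −0.16 without shCtrl 3 to −0.017 without shCtrl 1, and was 0.0035 with libraries scaled by total reads alone. The EphB median ran from −0.36 to −0.079, and without shCtrl 3, which gave −0.079, it lay above the EphA median, so that the order of the class medians rests on that library. In 3 of the 10, *Epha3*, *Epha7* and *Ephb6*, the libraries of the groups did not overlap, against 30.0% of all genes.

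**Figure D2:**
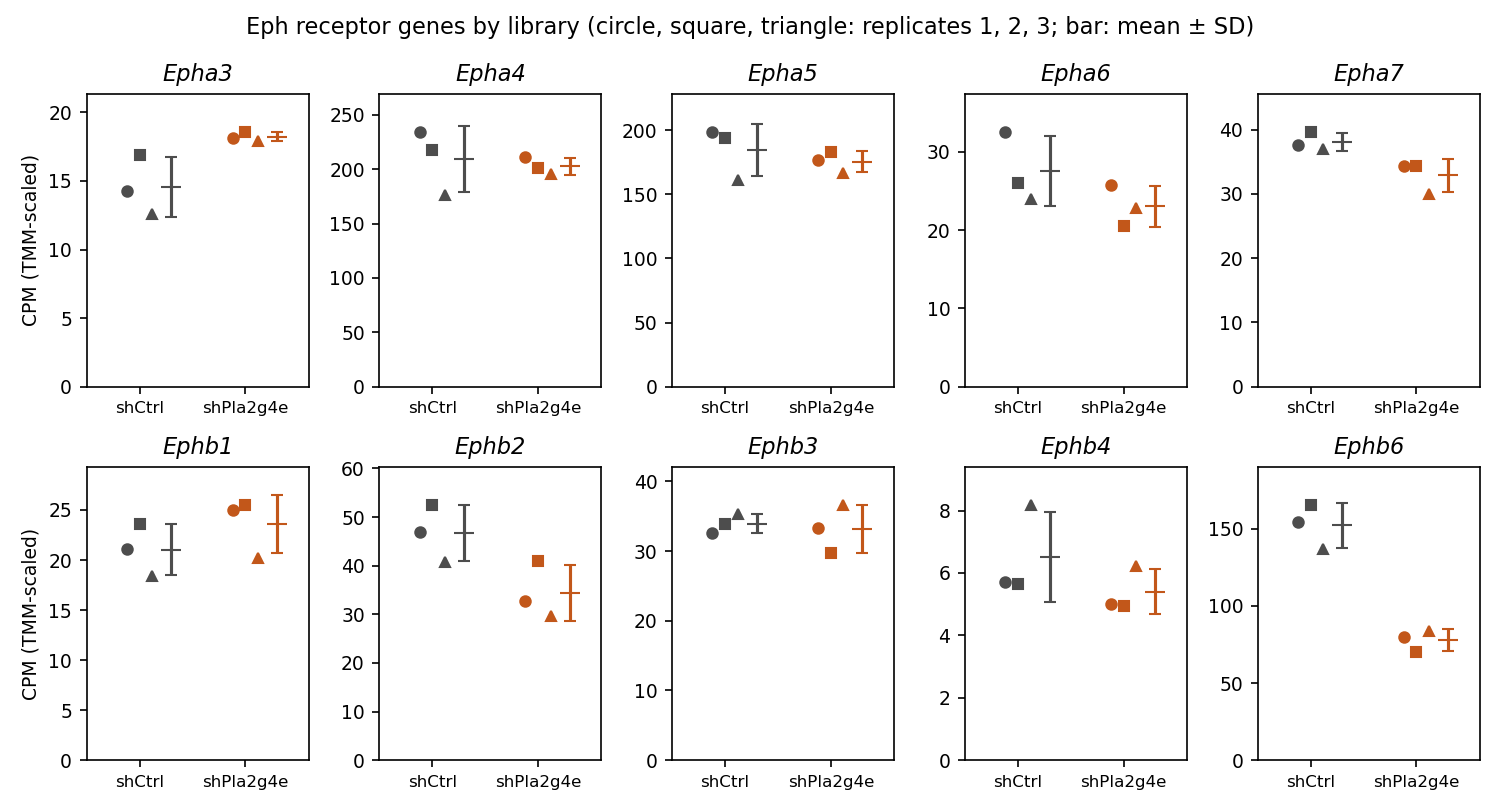
TMM-scaled CPM of each Eph receptor gene in the 6 libraries, shCtrl in grey and sh*Pla2g4e* in orange, with the mean and SD (n = 3) beside each group and every axis starting at 0. For *Ephb6* the groups are far apart, from 137 to 165 CPM against 69.9 to 83.8, while for *Epha4*, *Epha5* and *Ephb3* they lie over each other.

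*Ephb6*, the EphB receptor without kinase activity, was counted at 154, 165 and 137 CPM in shCtrl and at 79.8, 69.9 and 83.8 CPM in sh*Pla2g4e*. Every knockdown library lay well below every control. The mean went from 152 ± 14.4 to 77.8 ± 7.15 CPM (SD, n = 3), 51.1% of shCtrl. The log2 fold change was −0.97 (SE 0.093, 95% confidence interval −1.17 to −0.77, adjusted p = 6.43e-06), and the gene ranked at 66 of 21876 by p. That interval lay below the intervals of all 9 other genes, of which the lowest bound was −0.70 for *Ephb4*, although no test between genes was run. Leaving out any 1 library kept the call, with log2 fold changes of −1.04 to −0.90. The gene lies on the plus strand of chromosome 6, from 41582416 to 41597443 in GRCm39, the build named in the headers of the deposited counts, and none of its exon bases overlap another gene. The log2 fold changes of cell type markers had medians of −0.91 for microglia (5 of 6 genes below 0), −0.75 for proliferating progenitors (5 of 8), −0.38 for astrocytes (6 of 8), −0.23 for GABAergic neurons (5 of 6), −0.19 for glutamatergic neurons (3 of 6), −0.17 for pan-neuronal genes (5 of 8), 0.13 for the oligodendrocyte lineage (2 of 8) and 0.46 for endothelial and mural cells (2 of 8), beside 46.5% of all genes below 0. The microglial genes were near the floor, at a median level of 0.976 CPM. Of them 0 were called, and their median ran from −1.31 to −0.50 with a library left out. Endothelial and mural genes had a median level of 2.23 CPM with 0 called. Proliferating progenitor genes had 6.34 CPM with 1 of 8 called, beside 6.49% of all genes. The part of these marker shifts in the value of *Ephb6* was not tested.

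*Ephb2*, a receptor for ephrin-B that clusters NMDA receptors at excitatory synapses, was next in size. It stood at 46.9, 52.4 and 40.8 CPM in shCtrl and at 32.8, 40.9 and 29.7 CPM in sh*Pla2g4e*. The highest knockdown library, replicate 2, just reached the lowest control, so that the groups touched. The log2 fold change was −0.44 (SE 0.12, interval −0.69 to −0.18), with an adjusted p of 0.0247, which is past 0.05 and not past 0.01. Within the numbered pairs the sh*Pla2g4e* library held 70.1%, 77.9% and 72.8% of the CPM of its shCtrl partner. With the replicate block the log2 fold change was again −0.44 and the adjusted p was 3.04e-05, a call. DESeq2 gave an adjusted p of 0.00960, also a call, as for 11.6% of the genes to which it gave an adjusted p. Leaving out 1 library in turn moved the edgeR adjusted p between 0.00451, without sh*Pla2g4e* 2, and 0.148, without shCtrl 2.

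**Figure D3:**
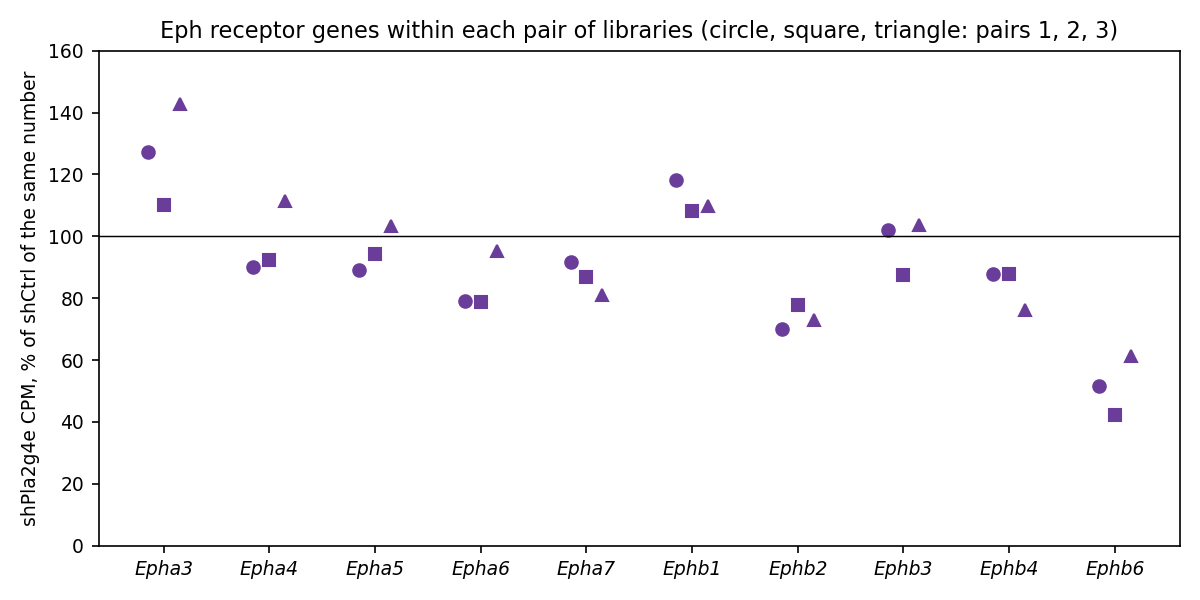
CPM in each sh*Pla2g4e* library as a percent of the shCtrl library with the same number, for the 10 genes, with a line at 100%. The pairs of *Ephb6* lie at 42.3% to 61.3% and those of *Ephb2* at 70.1% to 77.9%, and the pairs of *Epha4*, *Epha5* and *Ephb3* lie on both sides of the line.

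The remaining EphB genes did not pass the test. *Ephb1*, known from retinal axons that stay on their own side at the optic chiasm, had 21.2, 23.6 and 18.4 CPM in shCtrl and 25.0, 25.5 and 20.2 CPM in sh*Pla2g4e*, with overlapping groups (log2 fold change 0.17, interval −0.096 to 0.43, adjusted p = 0.449). It was 108% to 118% of its partner in each pair, and the log2 fold change lay between 0.078, without shCtrl 3, and 0.26, without sh*Pla2g4e* 3. *Ephb3*, which acts with *Ephb2* in the guidance of commissural axons, had 32.6, 33.9 and 35.3 CPM against 33.3, 29.7 and 36.6 CPM. The range of its controls lay inside that of the knockdown libraries, and the interval of its log2 fold change, −0.24 to 0.18, leaves out changes of the size seen for *Ephb6*.

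*Ephb4*, better known from veins and capillaries, where it binds ephrin-B2, was the least counted of the 10. It had 5.72, 5.64 and 8.17 CPM in shCtrl and 5.02, 4.95 and 6.23 CPM in sh*Pla2g4e*, from 107 to 184 reads a library. Control replicate 3 was the highest library by some distance, and the log2 fold change of −0.28 had an interval of −0.70 to 0.14 (adjusted p = 0.425). It was −0.079 without shCtrl 3, and the EphB median, which is the value of this gene, was then −0.079 as well.

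None of the 5 EphA genes passed edgeR's test, and 2 of them, *Epha3* and *Epha7*, had an unadjusted p under 0.05, as did 25.7% of all genes. *Epha4*, the EphA receptor that also binds ephrin-B and is known for spine retraction and corticospinal guidance, was the most counted gene of the 10, at 235, 218 and 176 CPM in shCtrl and 211, 201 and 196 CPM in sh*Pla2g4e*. All knockdown libraries lay within the range of the controls. Its log2 fold change was −0.045 (interval −0.25 to 0.16, adjusted p = 0.832), and the sign turned, with a value of 0.032, under scaling by total reads alone. *Epha5*, an ephrin-A receptor of topographic mapping and hippocampal synapses, had overlapping groups as well, with 199, 194 and 161 CPM against 177, 183 and 166 CPM (log2 fold change −0.073, interval −0.26 to 0.12, adjusted p = 0.676).

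For *Epha3* and *Epha7* the groups did not overlap although the test was not passed. *Epha3*, which mediates repulsion of retinal and other axons by ephrin-A, had 14.3, 16.9 and 12.6 CPM in shCtrl and 18.2, 18.6 and 17.9 CPM in sh*Pla2g4e*. The knockdown libraries were nearly equal, with a coefficient of variation of 1.81% against 14.9% in the controls. Its log2 fold change was 0.33 (interval 0.055 to 0.60), with an adjusted p of 0.112, and 0.0259 with the replicate block. *Epha7*, a receptor of cortical progenitors and dendrites that also has forms without a kinase domain, had 37.5, 39.7 and 37.0 CPM against 34.4, 34.4 and 29.9 CPM (log2 fold change −0.21, interval −0.41 to −0.010, adjusted p = 0.171).

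*Epha6*, an ephrin-A receptor that is enriched in forebrain neurons, had 32.6, 26.1 and 23.9 CPM in shCtrl and 25.8, 20.5 and 22.8 CPM in sh*Pla2g4e*. Control replicate 1 was the highest and knockdown replicate 2 the lowest, and the groups overlapped. The log2 fold change was −0.25 (interval −0.52 to 0.014, adjusted p = 0.221), and lay between −0.35 without shCtrl 3 and −0.12 without shCtrl 1. A gene on the opposite strand covers 2.02% of its exon bases, and 0.711% of those of *Ephb4*. The other 8 genes had no such overlap. At most 1.55% of the 50-base stretches of any of the 10 genes, for *Ephb1*, occur in another gene's transcripts.

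Set beside the sequences above, the 5 genes with a seed match in the lysine codons (*Epha3*, *Epha4*, *Epha7*, *Ephb1* and *Ephb4*) had log2 fold changes from −0.28 to 0.33, and 0 of them were called by edgeR, DESeq2 or limma, while edgeR called 10 of the 102 genes with that stretch down and 3 up (9.80% and 2.94%, beside 5.42% and 3.03% of all tested coding genes and 7.43% and 3.11% of those with a coding sequence in the members' range of length). *Epha4* and *Epha7*, with a 3′ UTR match, were at −0.045 and −0.21. *Ephb2*, at −0.44, and *Epha6*, at −0.25, have base changes in the stretch, and *Ephb6*, at −0.97, lacks it. Each of *Ephb2*, *Epha6* and *Ephb6* holds 1 seed match elsewhere in its coding sequence. *Epha5* and *Ephb3*, without any match, were at −0.073 and −0.034.

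Levels of different genes were compared as RPKM, the CPM divided by the exon length in kilobases. That length covers the exons of all annotated transcripts of a gene. It is 12608 bases for *Ephb2*, 8054 for *Epha4* and 3773 for *Ephb6*. Their longest coding transcripts in GENCODE vM21 have 4804, 6328 and 3762 bases. The order of genes and the class sums below depend on this choice of length, and levels by transcript length were not computed. In shCtrl the order by RPKM was led by *Ephb6* at 40.3 ± 3.82 (SD, n = 3), followed by *Epha4* at 26.0 ± 3.75 and *Epha5* at 11.03 ± 1.23, with no overlap of libraries between these neighbours. *Epha6* at 5.20 and *Ephb3* at 5.11 overlapped, as did *Epha7* at 3.85, *Ephb2* at 3.70 and *Ephb1* at 3.01, each with the next. *Epha3* at 1.68 and *Ephb4* at 1.40 came last and overlapped. In sh*Pla2g4e* the first places were exchanged. *Epha4* led at 25.2 ± 0.974 RPKM and *Ephb6* came second at 20.6 ± 1.90, without overlap, and *Epha5* followed at 10.5. Lower in the order, *Ephb1* at 3.36 stood before *Epha7* at 3.33 and *Ephb2* at 2.73, neighbours that overlapped in turn.

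*Ephb6* made up most of the EphB RPKM, and the sums of the classes moved apart. The 5 EphB genes together had 53.8, 57.6 and 49.2 RPKM in shCtrl and 33.4, 30.9 and 34.3 RPKM in sh*Pla2g4e*. The 5 EphA genes had 52.6, 49.5 and 41.2 RPKM against 47.3, 45.4 and 43.7 RPKM. The EphB sums did not overlap between groups and the EphA sums did. EphB genes thus took 52.9% ± 2.06 of the RPKM of the 10 genes in shCtrl and 41.97% ± 1.81 in sh*Pla2g4e* (SD, n = 3). *Ephb6* took 75.2% ± 1.36 of the EphB sum in shCtrl and 62.6% ± 2.50 in sh*Pla2g4e*. The EphB sum without *Ephb6* was 13.2 ± 0.533 RPKM against 12.3 ± 0.162 RPKM. These sums are descriptions with no test, and the shares rest on the exon lengths described above.

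**Figure D4:**
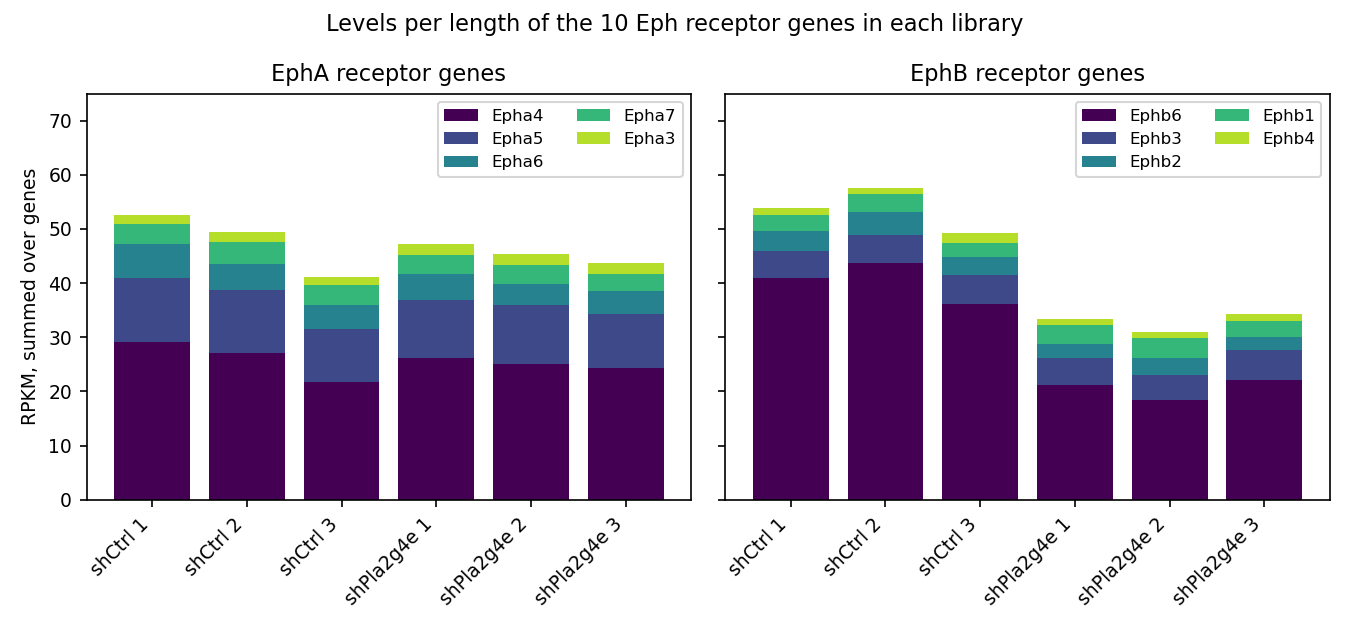
RPKM of the 5 EphA genes (left) and the 5 EphB genes (right) stacked in each of the 6 libraries, from an axis that starts at 0. The EphB stack falls from between 49.2 and 57.6 RPKM in shCtrl to between 30.9 and 34.3 RPKM in sh*Pla2g4e*, nearly all of it in the dark *Ephb6* block, while the EphA stacks overlap between groups.

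The other 4 Eph receptor genes of the mouse all had a positive log2 fold change, beside 46.5% of all genes below 0. *Epha10*, the EphA receptor whose kinase is inactive, was the only 1 of the 4 called, against 2.48% of all genes called up. It stood at 61.7, 45.5 and 47.4 CPM in shCtrl and 75.6, 74.7 and 74.8 CPM in sh*Pla2g4e*. The groups did not overlap, and the log2 fold change was 0.54 (interval 0.32 to 0.76, adjusted p = 0.00231). Of the receptors without kinase activity, *Ephb6* was thus called down and *Epha10* up, beside 4.0% and 2.48% of all genes. No test of them as a class was run. The call of *Epha10* was lost without shCtrl 2 (adjusted p = 0.0248), without shCtrl 3 (0.0124) and without sh*Pla2g4e* 1 (0.0109). *Epha2*, mostly an epithelial receptor, had 3.59, 2.92 and 2.71 CPM against 6.53, 9.15 and 2.80 CPM, replicate 3 standing at the level of the controls (log2 fold change 1.02, interval 0.35 to 1.68, adjusted p = 0.0445, and 6.83e-04 with the replicate block). Its log2 fold change was 0.62 without sh*Pla2g4e* 2 (adjusted p = 0.254) and 1.35 without sh*Pla2g4e* 3 (adjusted p = 3.31e-04, a call). *Epha8*, first known from axons of the midbrain, was at 15.4 to 23.8 CPM in shCtrl and 20.3 to 25.4 CPM in sh*Pla2g4e* (adjusted p = 0.399). *Epha1*, another epithelial receptor, was under 1 CPM in every library (adjusted p = 0.848), and its log2 fold change lay between −0.18 and 0.76 with a library left out.

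Of the 8 ephrin genes, 2 were called, both ephrin-A genes and both up, against 2.48% of all genes called up. *Efna1*, an ephrin-A best known from blood vessels and epithelia, had 1.79, 1.31 and 2.58 CPM in shCtrl and 4.73, 6.61 and 5.60 CPM in sh*Pla2g4e*. The groups did not overlap, and its log2 fold change of 1.56 (interval 1.01 to 2.11, adjusted p = 7.77e-04) stayed called with any library left out. *Efna3*, an ephrin-A that astrocytes present to EphA4 on spines, had 49.5, 42.2 and 36.0 CPM against 61.5, 70.7 and 53.7 CPM. Here too the groups did not overlap (log2 fold change 0.54, interval 0.29 to 0.80, adjusted p = 0.00599). The adjusted p rose to 0.0345 without shCtrl 2, 0.0293 without shCtrl 3, 0.0197 without sh*Pla2g4e* 1 and 0.0300 without sh*Pla2g4e* 2. A gene on the opposite strand covers 14.1% of its exon bases, and its reads cannot be told apart in counts made without strand.

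The remaining ephrins did not pass. The 3 ephrin-B genes, whose products bind EphB receptors, had log2 fold changes of −0.26 for *Efnb1* (adjusted p = 0.177), −0.16 for *Efnb2* (0.234) and −0.044 for *Efnb3* (0.842). *Efnb3* had the highest RPKM of all ephrins, 47.2 ± 5.65 in shCtrl and 45.8 ± 4.70 in sh*Pla2g4e* (SD, n = 3), with *Efna3* at 17.5 ± 2.78 and 25.5 ± 3.49 and *Efnb2* at 15.5 ± 0.795 and 13.9 ± 0.989. Among the ephrin-A genes, *Efna2* had a log2 fold change of −0.33 (adjusted p = 0.301), *Efna5* of −0.055 (0.873) and *Efna4*, at under 1.5 CPM throughout, of 0.0083 (0.993).

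**Figure D5:**
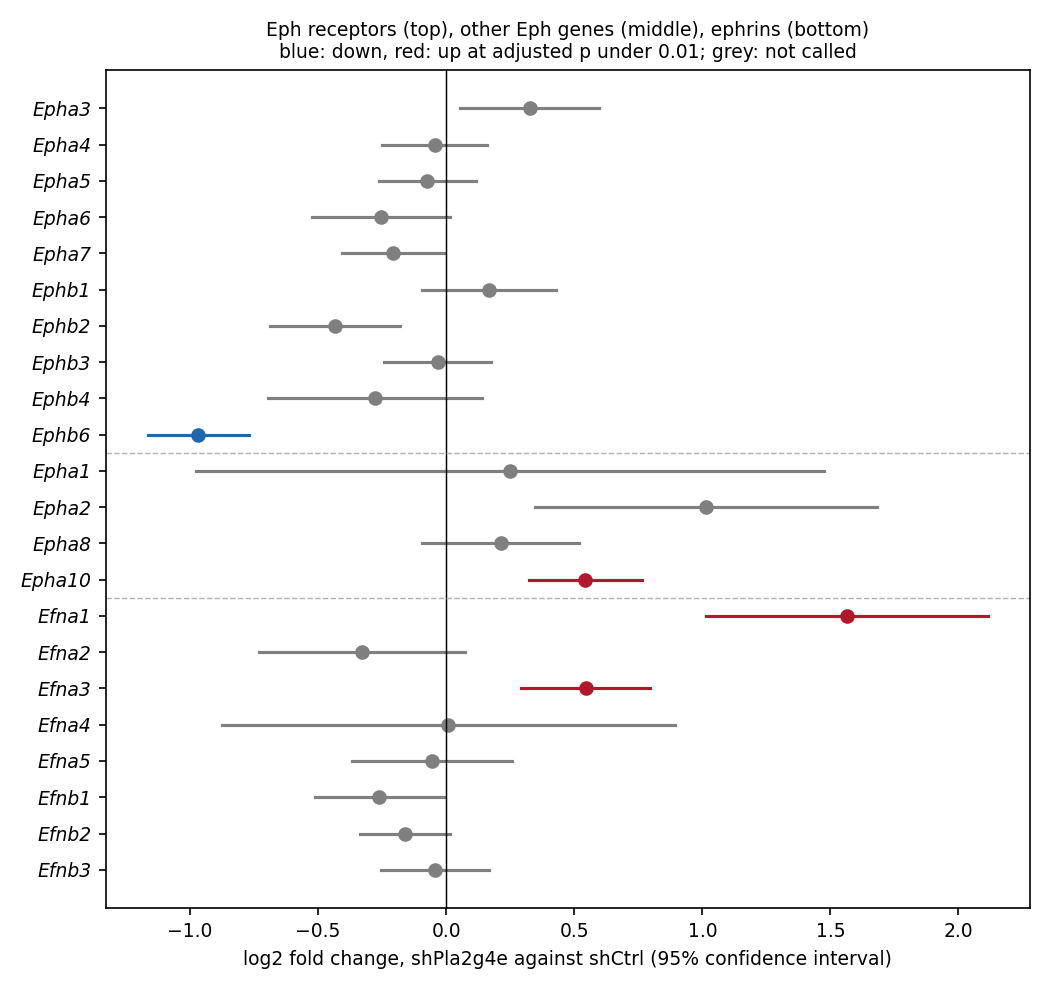
Log2 fold changes of sh*Pla2g4e* against shCtrl with 95% confidence intervals for the 10 Eph receptor genes (top), the other 4 Eph genes (middle) and the 8 ephrin genes (bottom), blue for called down, red for called up and grey for not called. *Ephb6* stands alone on the left at −0.97, and *Epha10*, *Efna1* and *Efna3* stand on the right at 0.54, 1.56 and 0.54.

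Downstream of the receptors, 60 genes for proteins that bind or carry the signal of Eph receptors and ephrins were listed, and all were tested. Of these 9 were down and 1 was up, 16.7% of the list called against 6.49% of all genes, with a median log2 fold change of −0.078 beside 0.029 over all genes. The 3 lists described next hold 30 of the 60 genes, with 3 of the 9 down and the 1 up, and the other 6 down calls are not described here. With libraries scaled by total reads alone 6 were down and 3 up, while over all genes the share of calls that were down went from 61.7% to 43.3%. With the replicate block 19 were down and 5 up, against 15.5% of all genes called in either direction.

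Among 8 partners of ephrin-B reverse signalling, 2 were down and 1 was up, beside 4.0% and 2.48% of all genes, and with the replicate block 4 were down and 1 was up, beside 15.5% in either direction. *Dab1*, the adaptor phosphorylated on reelin signals, had 132 ± 2.13 CPM in shCtrl and 77.7 ± 5.27 CPM in sh*Pla2g4e* (SD, n = 3), a log2 fold change of −0.77 with an adjusted p of 1.17e-05. *Reln*, the secreted ligand of that pathway, had 256 ± 19.1 and 187 ± 30.7 CPM (−0.45, adjusted p = 0.00944), a call lost with 4 of 6 libraries left out in turn and at 0.0581 without shCtrl 2. *Reln* also holds seed matches in its coding sequence, and whether the guide acts on *Dab1* or *Reln* was not tested. *Sdcbp*, the PDZ protein syntenin that binds the tail of ephrin-B, rose, with 128 ± 10.2 and 184 ± 3.65 CPM (0.53, adjusted p = 4.05e-04).

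Of 8 proteases and phosphatases that end Eph contacts or signals, *Ptpn1*, a phosphatase of Eph receptors, was called down, with 99.3 ± 7.47 CPM in shCtrl and 64.8 ± 4.27 CPM in sh*Pla2g4e* (log2 fold change −0.62, adjusted p = 1.75e-04). This is 1 of 8 called, beside 6.49% of all genes, and with the block 1 was down and 1 up. Of 14 adaptors and SH2 proteins 0 were called by edgeR or limma and 3 by DESeq2 (11.6% of the genes with its adjusted p), while 6 had an unadjusted p under 0.05 in edgeR (25.7% of all genes). With the replicate block 4 were down and 2 up, beside 15.5% of all genes.

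Marker genes were read to check the label of the cultures. The summed CPM of 8 pan-neuronal genes was 5279 to 5715 in shCtrl and 4833 to 5275 in sh*Pla2g4e*, with 2 of 8 called down and 1 up, beside 4.0% and 2.48% of all genes. Glutamatergic markers summed to 2089 to 2267 and 1515 to 1818 CPM, with 3 of 6 lower and 3 higher, of which 2 were called down and 1 up, and GABAergic markers to 729 to 782 and 600 to 666 CPM, with 2 of 6 down. Astrocyte markers were also plentiful, at 2636 to 3380 and 1809 to 2827 CPM with 3 of 8 down, so that the cultures labelled as neurons also held astrocyte RNA. With the replicate block 6 of these 8 were down and 1 up, beside 15.5% of all genes called.

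Oligodendrocyte lineage markers summed to 516 to 585 CPM in shCtrl and 536 to 640 CPM in sh*Pla2g4e* with 0 of 8 called by edgeR, DESeq2 or limma, 1 down with the replicate block (beside 15.5% of all genes called) and 1 at an unadjusted p under 0.05 (beside 25.7%), and markers of proliferating progenitors to 99.0 to 122 and 83.2 to 119 CPM with 1 of 8 down, beside 4.0% of all genes. Microglial markers stood at 4.58 to 9.50 and 3.05 to 5.37 CPM in all, and endothelial and mural markers at 28.4 to 72.3 and 33.4 to 78.5 CPM, *Cldn5* being at 0 in every library. In bulk RNA fewer cells of a type and less RNA per cell cannot be told apart. The part of these shifts in the values of *Ephb6* and the other Eph genes was not tested.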

How the data were processed

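Poly(A) RNA of 6 libraries was sequenced with a stranded kit. The authors aligned reads with STAR (2.7.0d per the labels) and counted reads per gene with featureCounts 1.6.0, with no strand option in the file headers, and deposited raw read counts for each library. The deposited exon length of each gene was used for RPKM. The file headers name GENCODE mouse release 28 (GRCm39), not the older mm10 and M18 given in the methods of the study, and gene positions follow the headers, while sequences and symbols came from GENCODE vM21 (GRCm38), matched by identifier for 52081 of 55357 genes. The prefrontal cortex data of the study were not analysed here.

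The 21876 genes reaching 6 reads in some library were tested with edgeR 4.0.16 in R 4.3.3 (TMM, estimateDisp, glmQLFit, glmQLFTest), sh*Pla2g4e* against shCtrl, 3 libraries each, with Benjamini-Hochberg adjustment over all genes and a threshold of 0.01. Standard errors came from the F statistic and 95% intervals from the total degrees of freedom of the fit, prior ones included. The fit was tested on simulated data. No pair of libraries differed by less than sampling noise (chi-square per gene of 6.03 to 38.0). Over all genes the spread between libraries thus exceeded counting error, while for single genes this was not compared. The least counted member had over 100 reads in every library.

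Alternatives were limma 3.58.1 after voom, the study's own test, DESeq2 1.42.0, 3 other scalings, 3 other filters, a robust fit, a threshold of 0.05, a replicate block and leaving out each library. The labels number the libraries and do not state that equal numbers are pairs, so pairing by number is an assumption of the block. Deviations from group means over 10958 genes correlated at 0.391, 0.188 and 0.460 for same numbers and at −0.391 to 0.105 otherwise. Such deviations sum to 0 within a group, so these correlations are not independent of each other. DESeq2 gave no adjusted p for 5514 genes, which stayed without a call.

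All 10 members, all ephrin and other Eph receptor genes, and of each effector list described up to 4 genes past the threshold with the smallest p were named. The results of 2 effector lists are not reported here. The members and lists were chosen with earlier results of these data known. Seed matches were read on the transcript strand, and no other strand was searched.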

Additional observations from a re-analysis of the deposited data

How the results depend on the processing

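Of the 10 Eph receptor genes 1 was called in edgeR, and 2 with no filter on low counts, with DESeq2, with the replicate block and at a threshold of 0.05, the second being *Ephb2*, as for the EphB genes alone (1, then 2). Leaving out 1 library gave 1 to 2 in both counts. The block changed no other call of the 10. Effector calls (10) became 17 with no filter, 16 with DESeq2, 24 with the block and 20 at 0.05, and 5 to 11 with a library left out, 5 without shCtrl 1 or shCtrl 2 and 6 without sh*Pla2g4e* 2. Ephrin calls (2) were 1 to 2 with a library left out. Calls over all genes (1419) were 2349 with no filter, 3395 with the block, 2813 at 0.05 and 695 to 1613 with a library left out, the lowest without shCtrl 2. The EphB median ranged from −0.36 to −0.079 with a library left out. Signs near 0 turned for *Epha4* (0.032 with library size alone, −0.16 to 0.044 with a library left out), *Epha5* (0.0035 with library size alone) and *Ephb3* (0.0012 with upper-quartile factors, 0.039 with library size alone, −0.11 to 0.040 with a library left out). Library size alone moved the median of all genes to 0.10, and the share of calls that were down from 61.7% to 43.3%. Causes of these differences were not tested. With 3 libraries a group the interval of *Ephb4*, −0.70 to 0.14, is wide, and a change within it could not be told from none.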
